A study of Mus musculus with 6 samples.

Results

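The 10 genes described here encode SLAM receptors and other surface antigens by which bone marrow progenitors are divided: Slamf1, Cd48, Ly9, Cd84, Slamf6, Slamf7, Fcgr3, Fcgr2b, Cd9 and Cd24a. They were chosen by name as antigens that subdivide megakaryocyte-erythroid progenitors (MEP), and all 10 were measured, among 22180 genes in all. MEP are the marrow progenitors of red cells and of megakaryocytes, the cells that shed platelets. RNA of sorted MEP was hybridised to 6 Affymetrix arrays, with 3 arrays of T-bet knockout and 3 of wild-type C57BL/6 mice. The labels give C57BL/6 as the strain of both groups, sorting from fresh bone marrow, and a separate mouse for each array. The sources used here do not give the knockout allele, the age of the mice or the antibodies of the sort. T-bet, encoded by Tbx21, is a T-box transcription factor known from T helper 1 and natural killer cells.

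SLAM receptors are immunoglobulin-type proteins on blood cells, and most of them bind a copy of themselves on a neighbouring cell. Their tails recruit small adaptors of the SAP family, of which SAP itself couples them to the kinase Fyn. CD48 has no such tail and is anchored in the membrane by a lipid. In mouse bone marrow, CD150 (Slamf1) together with the absence of CD48 marks stem cells. CD150 also separates early megakaryocytic and erythroid progenitors from later erythroid ones. The MEP gate itself conventionally takes cells that carry Kit, lack CD34 and have little CD16/32, the products of Fcgr3 and Fcgr2b. CD9 is carried by megakaryocytes and platelets, and CD24 by early B cells and maturing red cell precursors.

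In the RefSeq table of GRCm38.p6, 8 of the 10 genes lie on chromosome 1, in the order Fcgr2b, Fcgr3, Ly9, Slamf7, Cd48, Slamf1, Cd84 and Slamf6. Cd9 lies on chromosome 6 and Cd24a on chromosome 10. RefSeq promoter windows were matched for 8 of the 10, all but Ly9 and Cd24a. Shown are the 250 bases before the start of Slamf1 and Cd48, because this pair defines the CD150 and CD48 gates, and of Cd9, because its groups did not overlap on the arrays. Capitals mark matches to a T-box core (GGTGTGA, or GTGTGA within it), a GATA motif (AGATAA or TGATAA), an ETS motif (AGGAAG) or a RUNX motif (TGTGGT), on either strand.
Slamf1, GRCm38.p6, chr1:171766882-171767131, plus strand: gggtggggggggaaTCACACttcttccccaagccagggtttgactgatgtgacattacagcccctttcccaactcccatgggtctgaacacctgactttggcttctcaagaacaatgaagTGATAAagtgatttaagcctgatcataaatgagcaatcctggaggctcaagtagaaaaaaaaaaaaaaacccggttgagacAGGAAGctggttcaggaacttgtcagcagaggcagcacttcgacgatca
Cd48, GRCm38.p6, chr1:171681742-171681991, plus strand: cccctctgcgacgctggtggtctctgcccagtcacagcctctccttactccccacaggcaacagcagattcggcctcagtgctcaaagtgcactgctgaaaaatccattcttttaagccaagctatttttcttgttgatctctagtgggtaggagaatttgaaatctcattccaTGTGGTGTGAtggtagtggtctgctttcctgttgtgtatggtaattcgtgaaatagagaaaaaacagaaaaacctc
Cd9, GRCm38.p6, chr6:125494761-125495010, minus strand: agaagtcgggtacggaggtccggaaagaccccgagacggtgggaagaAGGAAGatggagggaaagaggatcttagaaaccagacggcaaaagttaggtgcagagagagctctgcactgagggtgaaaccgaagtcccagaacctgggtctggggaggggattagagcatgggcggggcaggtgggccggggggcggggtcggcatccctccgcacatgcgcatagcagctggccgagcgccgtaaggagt

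The full T-box core GGTGTGA was found in 1 of the 8 genes, Cd48, beginning 73 bases before the start and overlapping the RUNX match there. It is held by 3.33% of 32851 promoter windows of this length. The 8 genes have 9 windows. A gene was counted if any window of it matched, whereas the shares are over windows. The shorter core GTGTGA was found in Slamf1, Cd48 and Slamf7, and in 12.3% of all windows. The GATA motif was found in Slamf1 alone of the 8, 130 bases before the start, against 16.6% of all windows. The ETS motif was found in 4 of the 8 (Slamf1, Slamf7, Fcgr3 and Cd9) and in 29.5% of all windows. RUNX letters were found in Cd48 and Cd84, against 14% of windows, and a longer ETS motif (CCGGAAG or AGGAAGT, which overlaps AGGAAG) in none of the 8, against 14.1%. A match describes these letters and is not evidence that a factor binds there.

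Tbx21 gave no check of the genotype. Its log2 signal was 6.41, 6.60 and 6.46 in knockout replicates 1 to 3, against 6.54, 6.62 and 6.60 in wild-type replicates 1 to 3. The values overlapped, and the sources used here do not say which exons the probe set covers. Of the genes that define MEP, Kit read 11.99 to 12.03 in knockout and 11.95 to 12.07 in wild-type arrays, and Gata1, the erythroid and megakaryocytic factor gene, read 10.94 to 11.00 and 10.91 to 11.00. Array signals have no true zero and are not comparable between probe sets, so these levels do not by themselves check the sort. Both the female Xist RNA and Y-linked transcripts gave signal on 3 arrays, namely 2 knockout arrays (replicates 1 and 2) and 1 wild-type array (replicate 1). Those 3 arrays therefore go against a description as single mice, and results without them are given after the main ones. Y-linked signal without Xist was seen in replicate 3 of both groups, and Xist without Y-linked signal in wild-type replicate 2.

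None of the 10 genes passed an adjusted p of 0.05 in limma's test of T-bet knockout against wild-type MEP. The adjusted p of limma, a linear model fitted to all 41345 probe sets, was 1 for each, and 0% of probe sets passed 0.05 in either direction. At an unadjusted p under 0.05 there were 0 of the 10 in the fit reported, against 3.13% of all genes. Differences, as knockout minus wild type on the log2 scale, lay between -0.17 and 0.37, with a median of 0.05 against -0.0045 over all genes; 6 of the 10 were above 0 and 4 below, against 48.2% of all genes above 0. The 95% interval excluded a 1.5-fold difference in signal for 9 of the 10, all but Slamf6, as it did for 85.9% of all genes. In bulk RNA of sorted cells, fewer cells of a type and less RNA per cell cannot be told apart.

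**Figure D1:**
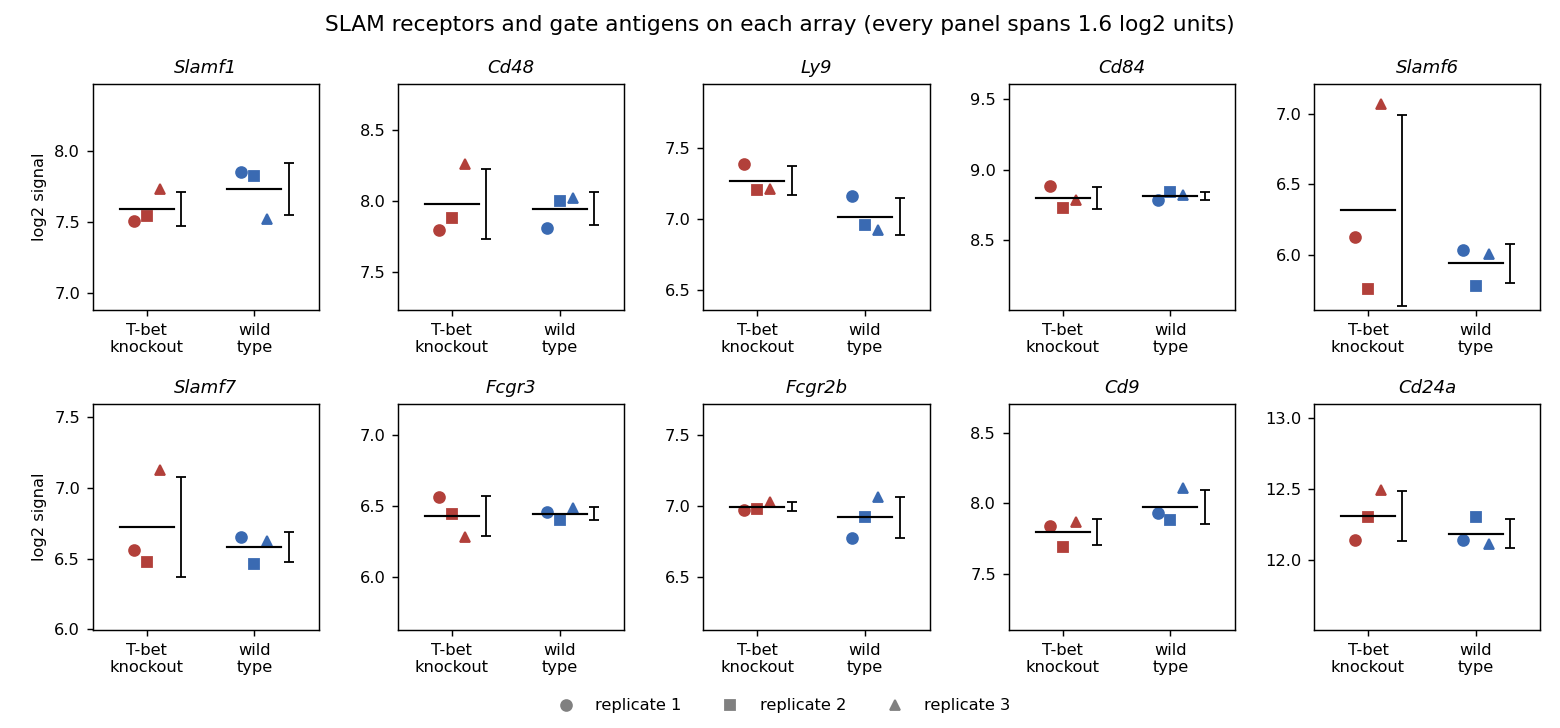
Log2 signal (vertical axis) of each of the 10 genes on the 3 T-bet knockout arrays (red, left) and the 3 wild-type arrays (blue, right). Marker shapes give the replicate number, horizontal lines the group mean and bars ± 1 SD; Ly9 and Cd9 are the genes whose groups do not overlap, and Slamf6 has 1 knockout array at 7.07 above 5 others between 5.76 and 6.13.

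The groups did not overlap for 2 of the 10 genes, Ly9 and Cd9, against 8.7% of all genes. Ly9, the receptor CD229 of T and B cells, was the SLAM gene among them. Its signal was 7.39, 7.21 and 7.21 in knockout replicates 1 to 3, against 7.16, 6.96 and 6.92 in wild-type replicates 1 to 3. Every knockout array lay above every wild-type array, though knockout replicates 2 and 3 exceeded wild-type replicate 1 by little. The difference was 0.25 (SE 0.11, 95% interval -0.01 to 0.51; limma unadjusted p = 0.0545, adjusted p = 1). Between same-numbered arrays it was 0.22, 0.25 and 0.29. The exact 2-sided permutation test gave p = 0.1, the smallest that 3 arrays against 3 allow. Of all genes, 3.52% had groups that did not overlap and were higher in the knockout, and Ly9 was 1 of the 10. Of 13 measured B cell markers, 11 were above 0 as well, with a median of 0.16. Their mean was highest on knockout replicate 3, and Ly9 on knockout replicate 1. Of 16 measured T and natural killer cell markers, 8 were above 0 and 8 below, with a median of -0.03. The part of either list in the Ly9 values was not tested.

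Slamf1 and Cd48, the pair that defines stem and progenitor gates, both had overlapping groups. Slamf1 read 7.51, 7.54 and 7.73 in knockout replicates 1 to 3, against 7.85, 7.83 and 7.53 in the wild-type replicates. Wild-type replicates 1 and 2 were highest, and wild-type replicate 3 lay within the knockout values. The Slamf1 difference was -0.14 (SE 0.13, 95% interval -0.44 to 0.16), and leaving out 1 array at a time gave -0.25 to -0.08. Cd48 read 7.80, 7.88 and 8.27 across the knockout arrays, against 7.81, 8.005 and 8.03 across the wild-type arrays, and differed by 0.03 (SE 0.15). Knockout replicate 3 was the highest of the 6 for Cd48. Without it the difference was -0.11, and without wild-type replicate 1 it was -0.03.

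Cd84, a receptor that platelets and mast cells also carry, varied least among the 10. It read 8.89, 8.73 and 8.78 in knockout arrays and 8.78, 8.84 and 8.82 in wild-type arrays. The wild-type values lay inside the knockout range, and the difference was -0.02 (SE 0.09, 95% interval -0.23 to 0.20; 0.02 without knockout replicate 2).

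Slamf6 and Slamf7 were set apart by 1 array. Slamf6 encodes Ly108, a receptor of T, B and natural killer cells. It read 6.13, 5.76 and 7.07 in knockout replicates 1 to 3, against 6.04, 5.78 and 6.01 in wild-type replicates 1 to 3. Knockout replicate 1 lay just above the wild-type arrays and replicate 2 just below them, while replicate 3 stood far above. Its difference of 0.37 (SE 0.32, 95% interval -0.38 to 1.13) was -0.00033 without that array. A second probe set of Slamf6, among the dimmest 30% of probe sets (called dim below), did not show the high array: it read 5.61, 5.35 and 5.34 in the knockout and 5.67, 5.20 and 5.03 in the wild-type arrays, and differed by 0.13 (SE 0.18). Slamf7, known from natural killer and plasma cells, read 6.56, 6.47 and 7.13 in knockout and 6.65, 6.46 and 6.63 in wild-type arrays. Its difference of 0.14 (SE 0.18) was -0.06 without knockout replicate 3.

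The mean over B cell markers was also highest on knockout replicate 3, and so were those over erythroid and over granulocyte and monocyte markers. The mean log2 signal of 13 measured B cell markers (of 15 listed) was 6.76, 6.49 and 6.89 in knockout replicates 1 to 3, against 6.58, 6.27 and 6.57 in wild-type replicates 1 to 3. The summed linear signal of this list ranged between 1353 and 2252 in knockout arrays and between 1089 and 1573 in wild-type arrays, with the 2252 on knockout replicate 3. Of the 13 markers, 7 had their highest value on that array, as did 4 of the 10 genes (Cd48, Slamf6, Slamf7 and Cd24a) and 21.5% of all genes. Cd79a, which encodes a signalling chain of the B cell antigen receptor, read 7.32, 6.93 and 7.79 in the knockout, against 7.01, 6.36 and 7.01 in the wild type. Not every marker of the list had this pattern. Differences were above 0 for 11 of the 13 and below 0 for 2, Cd79b (-0.0091) and Ms4a1 (-0.0055). Cd79b read 7.18, 6.88 and 7.21 in the knockout, against 7.09, 6.99 and 7.22 in the wild type. Fcrla had its lowest value on knockout replicate 3. Log2 signals have no true zero, so no marker can be said to be at 0; 3 of the 13 were dim. The mean over 19 granulocyte and monocyte markers was 5.95, 5.70 and 5.98 in knockout replicates 1 to 3, against 5.74 to 5.90 in wild-type arrays. The part of RNA of these other cells in the Slamf6, Slamf7, Cd48 and Cd24a values was not tested.

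**Figure D2:**
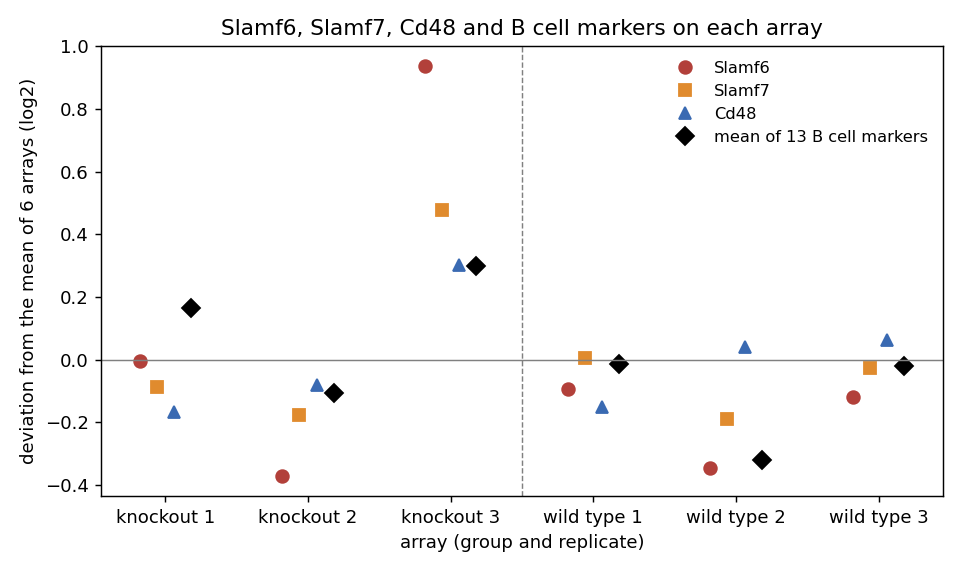
Deviation of Slamf6, Slamf7, Cd48 and the mean of 13 B cell markers from their own 6-array mean (log2, vertical axis) on each T-bet knockout and wild-type array (horizontal axis). On knockout replicate 3 they deviate by 0.94, 0.48, 0.30 and 0.30; on knockout replicate 1 the B cell mean is above 0 at 0.16 while the 3 receptor genes are not.

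Fcgr3 and Fcgr2b, whose products are stained together as CD16/32 to tell MEP from granulocyte-monocyte progenitors, gave close values in both groups. Fcgr3, an activating Fc receptor, read 6.56, 6.44 and 6.28 in knockout arrays and 6.46, 6.40 and 6.49 in wild-type arrays. The wild-type values lay inside the knockout range. Its difference was -0.02 (SE 0.10, 95% interval -0.27 to 0.23), with 0.06 without knockout replicate 3 and 0.00062 without wild-type replicate 3. Fcgr2b, the inhibitory Fc receptor, read 6.97, 6.98 and 7.03 in knockout and 6.78, 6.92 and 7.07 in wild-type arrays, and differed by 0.07 (SE 0.10, 95% interval -0.18 to 0.32), with 0.00051 without wild-type replicate 1 and 0.15 without wild-type replicate 3. Here the knockout values lay inside the wild-type range. Whether these 2 probe sets also read related Fc receptor genes was not tested.

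Cd9, a tetraspanin gene, was the other gene whose groups did not overlap. It read 7.84, 7.70 and 7.87 in knockout replicates 1 to 3, against 7.93, 7.88 and 8.11 in wild-type replicates 1 to 3. All 3 knockout arrays were below all 3 wild-type arrays, with knockout replicate 3 only just below wild-type replicate 2. The difference was -0.17 (SE 0.11, 95% interval -0.43 to 0.08; limma unadjusted p = 0.142, adjusted p = 1), and the exact permutation test gave p = 0.1. Groups that did not overlap and were lower in the knockout made up 5.18% of all genes, and Cd9 was 1 of the 10. Its second probe set, which was dim, had overlapping groups at 5.75, 5.73 and 5.18 in the knockout and 6.11, 5.54 and 5.58 in the wild type, with a difference of -0.19 (SE 0.22). Of 17 measured megakaryocyte markers 15 had a negative difference, with a median of -0.13. The mean log2 signal of that list was 6.78 to 7.02 in knockout arrays and 6.95 to 7.24 in wild-type arrays, and its part in the Cd9 values was not tested.

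Cd24a, the heat stable antigen, had overlapping groups. It read 12.14, 12.30 and 12.49 in knockout replicates 1 to 3, against 12.14, 12.30 and 12.11 in wild-type replicates 1 to 3. Same-numbered arrays matched for numbers 1 and 2 (differences of -0.0004 and 0.0015) and were 0.38 apart for number 3. The difference was 0.13 (SE 0.12, 95% interval -0.16 to 0.42), with 0.04 without knockout replicate 3 and 0.21 without knockout replicate 1. Of 15 measured erythroid markers 12 were above 0, with a median of 0.07. The mean log2 signal of that list was 10.86, 10.98 and 11.04 in knockout replicates 1 to 3, against 10.86 to 10.92 in wild-type arrays, and its part in the Cd24a values was not tested. A second probe set read 9.76, 9.44 and 9.66 in knockout and 9.46, 9.45 and 8.87 in wild-type arrays. Its difference of 0.36 (SE 0.18, 95% interval -0.08 to 0.80) was larger, and wild-type replicate 3 was its lowest array.

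**Figure D3:**
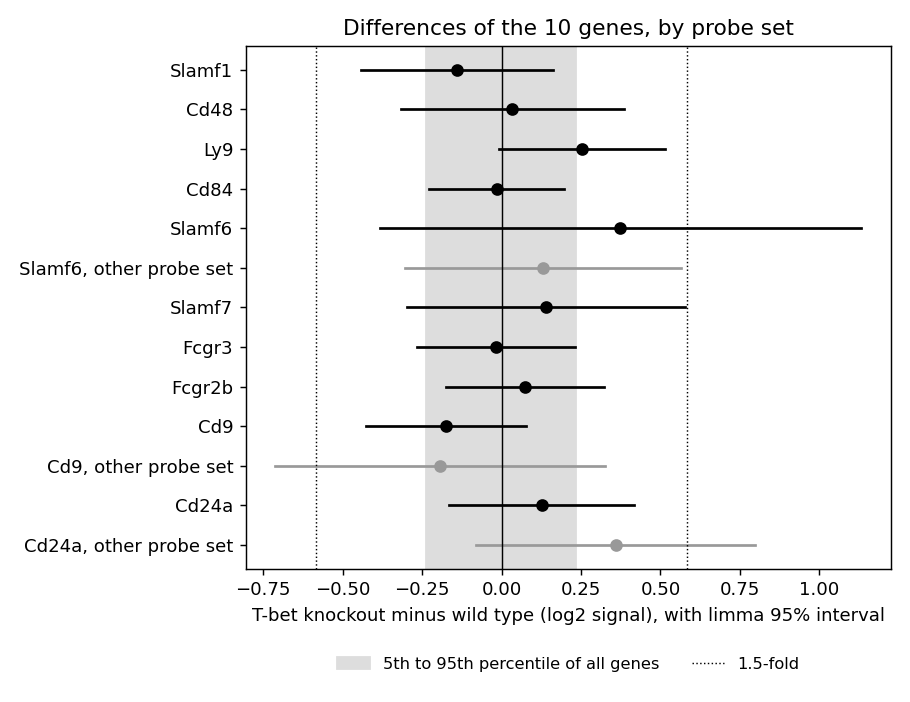
Difference in log2 signal, T-bet knockout minus wild type (horizontal axis), with limma's 95% interval for the 10 genes (black) and for the second probe sets of Slamf6, Cd9 and Cd24a (grey). The grey band spans the 5th to 95th percentile of all genes, -0.24 to 0.23, and dotted lines mark 1.5-fold; every interval includes 0, and Slamf6 has the widest.

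Without the 3 arrays that had Xist together with Y-linked signal, 1 knockout array (replicate 3) was left against wild-type replicates 2 and 3. Slamf6 then differed by 1.17, Slamf7 by 0.58, Cd24a by 0.28, Ly9 by 0.27 and Cd48 by 0.25. Slamf1 differed by 0.06, Fcgr2b by 0.04, Cd84 by -0.05, Cd9 by -0.13 and Fcgr3 by -0.16. These values cannot tell genotype from that single knockout array, which is assumed to vary like the wild-type ones. The smallest limma adjusted p among the 10 was 0.540. With sex-linked class (Xist, Y-linked or both) as a block, Ly9 differed by 0.20 and Cd9 by -0.20 (limma unadjusted p = 0.181 and 0.163). Wild-type replicate 2 is the only array of the Xist class, so it does not enter these differences.

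The partners of these receptors gave no call either. Of 13 measured SLAM adaptors, kinases and other SLAM receptors, 7 were above 0 and 6 below, with a median of 0.01 and 0 at an unadjusted p under 0.05. Cd244a, the receptor that binds CD48, read 6.82, 6.58 and 6.63 in the knockout and 6.52, 6.27 and 6.64 in the wild type, a difference of 0.20 (SE 0.13). Sh2d1b1, a SAP-family adaptor gene with dim signal, differed by -0.35 (SE 0.23). Among 12 other Fc receptor and signalling genes 3 were above 0 and 9 below, with a median of -0.01. Fcer1a, the IgE-binding chain, differed by -0.27 at dim signal and Fcgrt, the neonatal Fc receptor gene, by -0.23, and 0 of the 12 had an unadjusted p under 0.05.

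Of 22 tetraspanins and partners of CD9 or CD24, 13 were above 0 and 9 below (median 0.01), and 1 had an unadjusted p under 0.05, against 3.13% of all genes. This was Itga2b, the integrin chain CD41 that megakaryocyte progenitors carry and a member of the gate antigen list too. It read 7.25, 7.15 and 7.34 in knockout and 7.50, 7.41 and 7.86 in wild-type arrays, and differed by -0.34 (SE 0.14, limma adjusted p = 1). Among 22 other gate antigens 8 were above 0 and 14 below, with a median of -0.07 and 1, again Itga2b, at an unadjusted p under 0.05. Il7r, the interleukin 7 receptor gene of early lymphoid cells, singled out after its values were seen, had the largest difference there at 0.50 (SE 0.34). It read 7.69, 7.10 and 8.05 in the knockout and 7.52, 6.48 and 7.35 in the wild type, and was highest on knockout replicate 3.

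**Figure D4:**
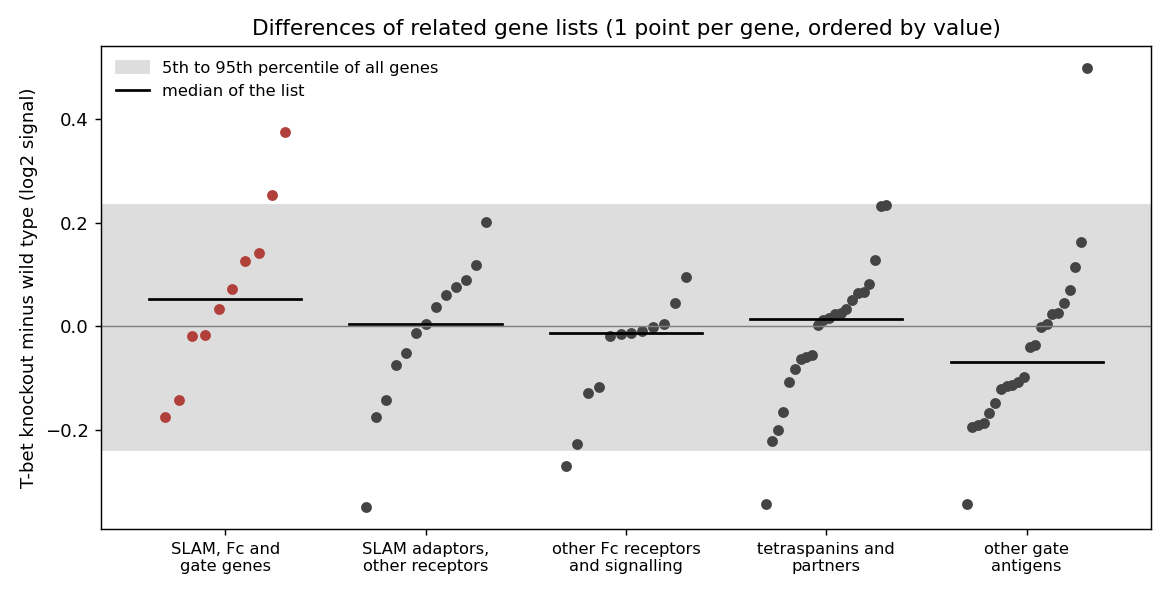
Difference in log2 signal, T-bet knockout minus wild type (vertical axis), with 1 point per gene, for the 10 genes (red) and 4 lists of related genes (grey); black lines are list medians and the band is the 5th to 95th percentile of all genes. Medians lie between -0.07 and 0.05; the lowest point of both right-hand lists is Itga2b, and the highest point of the plot is Il7r.

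The other genes between Fcgr2b and Slamf6 on chromosome 1 lay on both sides of 0. Besides the 8 genes of the described set that lie there, 23 were measured, with a median difference of -0.00018, 11 above 0 and 12 below. These 23 are not all unrelated to the set. They include the SLAM receptor gene Cd244a (0.20) and the Fc receptor genes Fcgr4 (-0.00018) and Fcer1g (-0.12).

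Genes with the most similar pattern were named for the 3 genes of largest range, by Pearson's r over the 6 arrays among 16295 genes outside the dim 30%. For Slamf6 they were Cnppd1 (r = 0.989), Scube2 (0.988) and Tspo (0.987). For Slamf7 they were Arhgef40 (0.995), Mef2a (0.991) and Eml5 (0.986). For Cd48 they were Gpcpd1 (0.995), Lrp12 (0.995) and Cgas (0.991). Each of them was highest on knockout replicate 3. With 6 points that share arrays and normalization, and the best of so many candidates taken, these values describe the arrays and carry no test.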

How the data were processed

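Per the labels' protocols, MEP were stained and flow-sorted, and biotinylated cRNA was hybridised. The deposited table holds the authors' log2 signal per probe set, for which the submitters' processing notes name Affymetrix Expression Console, version 1.4.1.46. Background correction, normalization and summarisation were not given in the sources used here. Base 2 was inferred: the highest value, 14.2, exceeds 11.1, the natural log of a 16-bit maximum. Array medians lay between 6.44 and 6.53, and values were used as deposited. Detection above background is unknown, and differences between dim values can understate true ones; the number of arrays limits precision.

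Names came from the array annotation (23521 probe sets with 1 symbol, 1814 with several, 16010 unnamed here), updated by gene ID through RefSeq, which held 23328 of the 23521. The probe set with the highest mean stood for its gene, which left all 10 genes outside the dim 30%. Levels were compared between arrays. Levels of different probe sets were ranked only to choose that probe set and the dim 30%. The means and summed linear signals of marker lists also combine probe sets, and in the sums brighter probe sets weigh more. Differences were tested with limma 3.58.1 in R 4.3.3 (lmFit, eBayes; Benjamini-Hochberg over 41345 probe sets, threshold 0.05), knockout minus wild type, after a test on simulated data. The SE and 95% intervals are limma's, and SD is over 3 arrays. The limma p-values set a difference against the spread between these arrays, as estimated with information from the other probe sets.

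The genes and lists were chosen with earlier results of these data known. All 10 genes are given, and of each related list those with an unadjusted p under 0.05, otherwise the 2 of largest difference. Il7r was named after its values were seen, and 1 result among the genes neighbouring these on chromosome 1 is not reported here. Replicate numbers 1 to 3 recur in both groups. Deviations from group means correlated at 0.285, 0.116 and 0.115 between arrays of the same number, taking 1 probe set per gene. These lay above the criterion of 0.1, so an alternative fit took the replicate number as a block. Over all probe sets the correlations were 0.212, 0.0569 and 0.140. Unless an alternative is named, the differences, SE, intervals and p-values given are from the fit without this block. Xist was taken as present above a log2 signal of 9, and Y-linked transcripts above a mean of 7, cuts set after seeing the values. Alternatives varied scaling, weights, filters, blocks, probe sets and arrays. Promoter windows come from RefSeq, GRCm38.p6; the array file names no build. The motifs were chosen with the sequences in view.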

Additional observations from a re-analysis of the deposited data

How the results depend on the processing

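None of the 10 genes passed an adjusted p of 0.05 in any of 153 alternative values (smallest limma adjusted p 0.540), and 144 kept their direction. Leaving out 1 array turned the sign of Cd48 (-0.11 to 0.13), Cd84 (-0.058 to 0.020), Slamf6 (-0.00033 to 0.65), Slamf7 (-0.061 to 0.26) and Fcgr3 (-0.086 to 0.057). Cd48 was -0.0022 with array weights, and Slamf1 was 0.057 without the 3 arrays with both Xist and Y-linked signal, an alternative chosen after seeing the data. The causes of these sign changes were not tested. Each of these fits except that with array weights held fewer arrays. Ly9 stayed between 0.19 and 0.33 and Cd9 between -0.22 and -0.11 in all alternatives run. The limma unadjusted p of Ly9 was under 0.05 in 7 of its 15 alternatives. With replicate number as a block Ly9 differed by 0.25 (limma unadjusted p = 0.0333, adjusted p = 0.766), and the pairing changed no call. Over all probe sets, calls numbered 0 in the fit reported and 0 with the replicate block, 1 with centred arrays and 1 under array weights; omitting single arrays gave 0 to 2, the 2 being without knockout replicate 3; none was among the 10 genes. The median over the 10 genes was 0.05, and 0.15 without the 3 arrays; leaving out 1 array gave -0.0063 to 0.11, below 0 without knockout replicate 3 (-0.0041) and without wild-type replicate 1 (-0.0063).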
